A study of Homo sapiens with 6 samples.

Results

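MHC class I molecules show peptides from inside the cell to T cells. The 9 genes examined here encode their chains (HLA-B, HLA-C, HLA-E, HLA-F and B2M), the peptide transporter (TAP1 and TAP2), the loading chaperone tapasin (TAPBP) and the class I transactivator (NLRC5). Rows were taken by gene name, with no threshold on a measured value, and all 9 were found among the 58735 genes of the deposited table. RNA was sequenced in 6 libraries labelled BxPC-3, a human pancreatic cancer line. DMSO, the solvent, was given in 3 of them and GSK3326595 in the other 3, a compound that blocks PRMT5, which adds symmetric dimethyl marks to arginines of other proteins. No genetic change is named for either group, and the sources used here state neither dose nor duration. The series title concerns the Hippo kinase MST2, and its design text speaks of a knockdown; the library labels, which name the inhibitor, were followed. Whether the libraries of a group are separate cultures is not stated, so the p-values reflect the spread between these samples alone, which may be technical.

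As background, peptides cut by the proteasome are carried into the endoplasmic reticulum by the TAP1 and TAP2 heterodimer. There tapasin holds TAP next to a heavy chain paired with beta-2 microglobulin (B2M), and the loaded complex travels to the surface. The heavy-chain, B2M and transporter genes are known to respond to interferons through IRF factors, to NF-kB, and to NLRC5 acting with the RFX, CREB and NF-Y factors at a shared promoter module. Epithelial tumour cells usually express the classical chains at high levels, and lower class I display is a known route of escape from T cells.

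Values are FPKM, fragments per kilobase of listed gene length scaled to library size, from which whole reads could be recovered: 14087260 to 15724750 per library. Every fold change is a difference in log2(FPKM + 1), a scale that shrinks changes of genes with low values. A gene was called where its p, adjusted with Benjamini-Hochberg over all genes tested, was under 0.05 in limma (13578 genes with at least 1 FPKM in at least 3 libraries). PRMT5 itself was lower in each inhibitor library, with 23.2, 24.6 and 26.2 FPKM under DMSO and 13.4, 12.8 and 12.1 with the inhibitor. Inhibitor replicate 2 stood apart: its log2 values correlated with its partners at r = 0.904 and 0.906, against 0.980 between the other 2, and 11.3% of its reads were mitochondrial, against 4.70% to 6.03% elsewhere. Fold changes and counts of the 9 genes and of the lists below are therefore also given without it. Of 10 markers of pancreatic ductal epithelium, KRT19, CEACAM6 and ESRP1 had no reads in any library. CDH1 and EPCAM lay under 1 FPKM in each library, whereas KRT7, KRT8, KRT18 and MUC1 lay at 20.2 FPKM or more. KRT7 fell (−0.66, and −0.65 without inhibitor replicate 2) and MUC1 rose (1.11, and 1.13 without). KRT8 (0.43) and KRT18 (0.49) lay above DMSO in each inhibitor library, and SOX9 (−0.50) lay below it. None of these was called with all libraries, but each was without inhibitor replicate 2 (0.29, 0.33 and −0.46). They were named after their values were seen. The sum of all 10 lay at 675 to 755 FPKM in DMSO and 790 to 1042 with the inhibitor. The near absence of KRT19, CEACAM6, ESRP1, CDH1 and EPCAM goes against the labelled cell type, so the identity of the cells is uncertain. The levels below are those of the libraries labelled BxPC-3. Of 10 immune cell markers, CD3E, CD2, MS4A1 and LYZ had no reads, and all 10 together summed to 0.539 to 1.05 FPKM in DMSO and 0.880 to 1.42 with the inhibitor. Of 9 fibroblast and endothelial markers, COL1A2 and LUM had no reads. PDGFRB rose (1.47, and 1.45 without inhibitor replicate 2) and CDH5 fell (−0.76, and −0.90 without). COL1A1, named after its values were seen, went from a mean of 4.33 to 8.18 FPKM with no overlap between groups. It was not called with all libraries (0.74, limma adjusted p = 0.0618) but was without inhibitor replicate 2 (0.99, adjusted p = 0.000992). The sum of the 9 lay at 6.18 to 7.05 FPKM in DMSO and 11.1 to 15.7 with the inhibitor. Its part in the results below was not tested. In a bulk sample, fewer cells with a transcript and less of it per cell cannot be told apart.

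The promoters are shown first, a choice made after interferon- and NF-kB-linked regulators of these genes were seen to move. The part of promoter sequence in any change below was not tested. RefSeq (GRCh38.p14) gave a promoter for 7 of the 9 genes, all but HLA-E and NLRC5. Where a gene had several, the start nearest to the edge of the listed gene was taken. That start lay 274 bases inside the listed gene for TAP1, 309 for TAPBP and 659 for HLA-F. The sequences shown for these genes thus lie within the listed gene. The 250 bases before the start are printed for the transporter pair, for tapasin and B2M, and for HLA-B beside its relative HLA-F. HLA-F had at most 2 counted reads in a library. Their positions are TAP1 chr6:32853705-32853954, minus strand; TAP2 chr6:32838740-32838989, minus strand; TAPBP chr6:33314079-33314328, minus strand; B2M chr15:44711267-44711516, plus strand; HLA-B chr6:31357180-31357429, minus strand; HLA-F chr6:29723184-29723433, plus strand. Capitals mark matches, on either strand, to the kB consensus bound by NF-kB, to AANNGAAA (the core bound by IRF factors), to TGACG (the core of a CREB site) and to CCAAT (the box bound by NF-Y).
TAP1: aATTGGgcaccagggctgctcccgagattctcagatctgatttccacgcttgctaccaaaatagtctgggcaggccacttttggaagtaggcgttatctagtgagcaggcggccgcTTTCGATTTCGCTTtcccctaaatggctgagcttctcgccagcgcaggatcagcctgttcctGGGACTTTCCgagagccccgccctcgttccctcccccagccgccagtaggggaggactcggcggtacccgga
TAP2: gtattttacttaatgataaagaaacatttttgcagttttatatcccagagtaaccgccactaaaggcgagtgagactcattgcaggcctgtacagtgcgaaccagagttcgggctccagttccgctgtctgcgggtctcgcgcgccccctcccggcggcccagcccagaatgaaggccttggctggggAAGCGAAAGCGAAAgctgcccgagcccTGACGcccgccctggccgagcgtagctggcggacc
TAPBP: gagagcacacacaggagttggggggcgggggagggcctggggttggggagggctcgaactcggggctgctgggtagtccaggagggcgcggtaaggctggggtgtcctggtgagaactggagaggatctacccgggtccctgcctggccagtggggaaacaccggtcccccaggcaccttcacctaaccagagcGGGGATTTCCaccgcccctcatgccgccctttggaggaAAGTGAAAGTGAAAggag
B2M: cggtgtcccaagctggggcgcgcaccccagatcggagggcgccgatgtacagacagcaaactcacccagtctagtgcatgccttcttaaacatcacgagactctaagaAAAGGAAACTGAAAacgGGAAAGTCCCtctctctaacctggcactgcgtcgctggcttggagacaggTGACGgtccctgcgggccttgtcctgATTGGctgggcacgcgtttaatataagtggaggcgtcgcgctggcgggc
HLA-B: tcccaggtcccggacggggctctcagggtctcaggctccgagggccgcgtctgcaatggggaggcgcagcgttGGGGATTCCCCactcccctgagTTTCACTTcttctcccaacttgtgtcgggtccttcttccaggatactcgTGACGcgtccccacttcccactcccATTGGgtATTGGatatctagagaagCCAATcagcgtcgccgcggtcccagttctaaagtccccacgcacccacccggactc
HLA-F: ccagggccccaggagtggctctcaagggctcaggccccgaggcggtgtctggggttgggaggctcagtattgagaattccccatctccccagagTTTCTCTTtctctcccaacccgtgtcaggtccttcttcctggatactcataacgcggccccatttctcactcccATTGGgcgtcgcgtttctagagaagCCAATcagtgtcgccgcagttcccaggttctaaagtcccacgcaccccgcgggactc
All 7 promoters held AANNGAAA, which 20.3% of 35116 RefSeq promoters of this length hold. TAP1, TAP2, TAPBP and B2M each held 2 overlapping copies of it, and HLA-B, HLA-C and HLA-F held 1 each. The kB consensus, found in 5.21% of promoters, lay in HLA-B, HLA-C, B2M, TAP1 and TAPBP; the 2 matches in HLA-B overlap. TGACG was present in 4 of the 7 (HLA-B, HLA-C, B2M and TAP2; 21.2% of all promoters) and CCAAT in 5 (HLA-B, HLA-C, HLA-F, B2M and TAP1; 32.0%). The gamma-interferon element TTCNNNGAA was in none of the 7, against 6.57% of all promoters. Aligned over their shared bases, the promoter of HLA-B was 91.9% identical to that of HLA-C and 83.7% identical to that of HLA-F. A match describes letters only, and binding was not measured.

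In the DMSO libraries the 9 genes ranged from abundant to not detected. B2M, the invariant light chain, stood highest, at 86.9, 87.6 and 82.9 FPKM, within the top 3.20% of the genes tested. HLA-C (mean 45.0), the non-classical chain HLA-E (43.8) and TAPBP (42.8) followed with overlapping libraries, so their order is not settled. TAP1 (14.7) and HLA-B (12.5) came next, with 13.9 FPKM the lowest TAP1 library and 13.8 the highest of HLA-B, then TAP2 (4.13) and NLRC5 (2.85), which ranked 7885 and 9288 of the 13578 genes tested. The listed lengths, however, span all exons of a gene: 6079 bases for B2M and 5056 for TAPBP, against 1705 and 1888 in the principal GENCODE 29 transcript. Per kilobase of that transcript the mean DMSO levels were 306 for B2M, 115 for TAPBP, 73.5 for HLA-C, 50.1 for HLA-E, 24.6 for HLA-B, 23.9 for TAP1, 10.6 for TAP2 and 5.17 for NLRC5. On this scale TAPBP stood above HLA-C and HLA-E, and HLA-B and TAP1 could not be ordered.

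**Figure D1:**
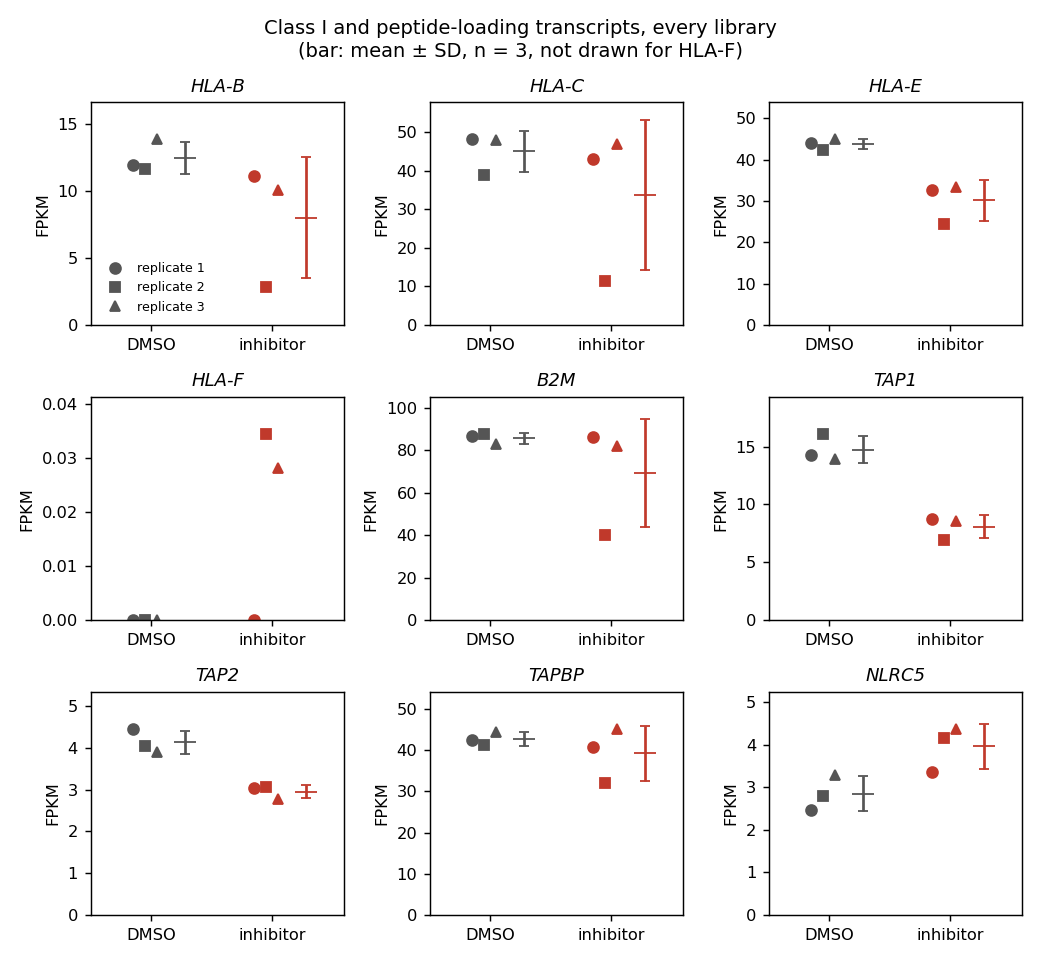
FPKM of the 9 genes in each of the 6 libraries, with linear axes from 0; symbols mark replicates, and bars, left out for HLA-F, give the mean and SD of 3 libraries. TAP1, TAP2, HLA-E and HLA-B (lower) and NLRC5 (higher) show no overlap between groups, as did 45.9% of all genes tested, and inhibitor replicate 2 (square) lies far below its partners for HLA-B, HLA-C and B2M.

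TAP1, a subunit of the peptide transporter, fell with the inhibitor and was the only one of the 9 genes to pass the test with all libraries. TAP1 (ENSG00000168394, chromosome 6, 32845209 to 32853978, hg38) had 14.2, 16.1 and 13.9 FPKM with DMSO and 8.77, 6.93 and 8.53 with the inhibitor. The 3 inhibitor libraries lay well below the 3 DMSO libraries, and the mean with the inhibitor was 0.548 times that in DMSO. The log2 fold change was −0.80 (SE 0.13, 95% CI −1.11 to −0.49, limma adjusted p = 0.0117), and −0.70 without inhibitor replicate 2 (adjusted p = 0.00196). Its size hardly moved, from −0.74 to −0.83, when DMSO replicate 1, 2 or 3 was left out, but the call was lost then (adjusted p = 0.0637, 0.0681 and 0.0544). Those fits called 478, 510 and 579 genes in all, against 2339.

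TAP2, the partner subunit (ENSG00000204267, chromosome 6, 32821833 to 32838780), had 4.44, 4.05 and 3.89 FPKM with DMSO and 3.03, 3.06 and 2.76 with the inhibitor. The groups did not overlap and inhibitor replicate 2 lay with its partners, yet TAP2 missed the threshold (log2 fold change −0.38, SE 0.11, 95% CI −0.63 to −0.12, limma adjusted p = 0.0582). It was called without inhibitor replicate 2 (−0.40, adjusted p = 0.0165). The ratio of TAP1 to TAP2, in FPKM, was 3.20 to 3.97 in DMSO and 2.26 to 3.08 with the inhibitor. The 2 ranges do not overlap, and an exact permutation test of 3 against 3 could not go below p = 0.1. Counting bears on both genes: PSMB9, on the opposite strand, overlaps TAP1 but had only 13 to 62 reads per library, against 446 to 1130 for TAP1. For TAP2, 80.2% of the 50-base words of its principal transcript also occur in AL669918.1, a gene on the same strand that reads through it and was listed at 0 in every library. How reads common to both were counted is not given in the sources used here.

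Tapasin and the light chain gave no call. TAPBP, which bridges TAP and the heavy chain (ENSG00000231925, chromosome 6, 33299694 to 33314387), had 42.5, 41.3 and 44.5 FPKM with DMSO and 40.8, 31.9 and 45.1 with the inhibitor. Its libraries overlapped (log2 fold change −0.13, 95% CI −0.49 to 0.23, limma adjusted p = 0.561), and without inhibitor replicate 2 the value was 0.00 (95% CI −0.17 to 0.18). The ratio of TAP1 to TAPBP was 0.313 to 0.389 in DMSO and 0.189 to 0.217 with the inhibitor, so the transporter subunit was lower relative to tapasin in each inhibitor library. B2M (ENSG00000166710, chromosome 15, 44711487 to 44718877) stood at 86.4, 40.2 and 82.0 FPKM with the inhibitor. Replicates 1 and 3 lay within or just under the DMSO range of 82.9 to 87.6, and only replicate 2 was far below it. The log2 fold change of B2M was −0.38 (95% CI −1.08 to 0.33, limma adjusted p = 0.399), and −0.03 without that library (95% CI −0.17 to 0.11).

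Among the heavy chains, HLA-E was lower in each inhibitor library, whereas HLA-B and HLA-C depended on inhibitor replicate 2. HLA-E, the ligand of the NKG2A and NKG2C receptors (ENSG00000204592, chromosome 6, 30489467 to 30494205), had 44.1, 42.4 and 44.9 FPKM with DMSO and 32.7, 24.5 and 33.4 with the inhibitor. The groups were clearly apart, but the test narrowly missed (log2 fold change −0.53, SE 0.15, 95% CI −0.89 to −0.18, limma adjusted p = 0.0530). Without inhibitor replicate 2 HLA-E was called at −0.39 (SE 0.06, adjusted p = 0.00395). HLA-B, a classical chain (ENSG00000234745, chromosome 6, 31269491 to 31357188), had 11.97, 11.6 and 13.8 FPKM with DMSO and 11.1, 2.87 and 10.1 with the inhibitor. Although the groups did not overlap, inhibitor replicates 1 and 3 lay only just below the lowest DMSO library. The log2 fold change of HLA-B was −0.74 (95% CI −1.77 to 0.29, limma adjusted p = 0.267), and −0.22 without replicate 2 (95% CI −0.45 to 0.02, adjusted p = 0.122). HLA-C, also classical (ENSG00000204525, chromosome 6, 31268749 to 31272130), had 48.1, 38.9 and 48.0 FPKM with DMSO and 43.0, 11.4 and 46.9 with the inhibitor. Its inhibitor replicates 1 and 3 lay within the DMSO range, and the log2 fold change went from −0.63 (95% CI −1.85 to 0.60, limma adjusted p = 0.420) to 0.00 without replicate 2 (95% CI −0.27 to 0.27).

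HLA-F, a non-classical chain (ENSG00000204642, chromosome 6, 29722775 to 29738528), had 0 reads in the 3 DMSO libraries and 0, 2 and 2 reads in the inhibitor libraries. It was therefore not among the genes tested. The limit that a count of 0 allows, 3 reads over the group, corresponds to a mean of 0.0153 FPKM in DMSO and covers counting error only; the exact two-sided Poisson 95% interval for 0 reads goes up to 3.69 reads. The 4 reads of the inhibitor group have an interval of the same kind of 1.09 to 10.2 reads, so no difference was detectable at this depth.

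The heavy-chain genes are close copies, and the listed gene of HLA-B overlaps that of HLA-C over 2640 bases on the same strand, so the division of reads among them is uncertain. In the reference transcripts, 2.54% of the 50-base words of HLA-B, 6.79% of those of HLA-C and 5.13% of those of HLA-E occur in another gene, against 0% for B2M, TAPBP and NLRC5. With 100-base words the shares were 0%, 0.278% and 0.600%. The alleles of the cell line were not read here. The ratio of HLA-B to HLA-C was 0.249 to 0.298 in DMSO and 0.214 to 0.258 with the inhibitor, overlapping ranges, and at 0.251 in inhibitor replicate 2 it lay between its partners; the 2 chains were thus low together in that library.

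NLRC5, the transactivator of class I genes (ENSG00000140853, chromosome 16, 56989485 to 57083531), ran the other way. NLRC5 had 2.47, 2.78 and 3.29 FPKM with DMSO and 3.36, 4.16 and 4.36 with the inhibitor. The highest DMSO and lowest inhibitor libraries nearly touched, and the difference was not called (log2 fold change 0.37, SE 0.14, 95% CI 0.03 to 0.70, limma adjusted p = 0.119; 0.34 without inhibitor replicate 2, adjusted p = 0.1001). The ratio of NLRC5 to B2M, both in FPKM, was 0.0284 to 0.0397 in DMSO and 0.0389 to 0.103 with the inhibitor, ranges that overlap, and its highest value came from inhibitor replicate 2, where B2M was low.

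Of the 8 members tested, 1 was called lower and 0 higher. Among all genes tested, 10.0% were called lower and 7.18% higher, 17.2% in either direction. The members were chosen with earlier results of these data known, so their shares may reflect that choice. With limma, 3 members were lower and 1 higher at an unadjusted p under 0.05, against 20.0% and 14.6% of all genes tested. On the recovered reads limma-voom called 3 lower and 0 higher, against 10.8% and 8.01% of all genes. Without inhibitor replicate 2, 3 members were called lower (TAP1, TAP2 and HLA-E) and 0 higher, against 23.1% and 17.5% (40.6% in either direction) of all genes. The split of calls over all genes depends on scaling: rescaled without mitochondrial and the 50 most abundant genes, 1262 were higher and 1001 lower, whereas 41.7% of the 2339 calls were higher before. Groups did not overlap for 4 members in the lower direction, where 26.7% of all genes tested did the same, and for 1 in the higher direction (19.2%; 45.9% in either). The median log2 fold change of the 8 was −0.46, against −0.05 over all genes tested, and −0.12 against −0.05 without inhibitor replicate 2. The fold change was below 0 for 7 of the 8, although that of TAPBP was above 0 with quantile normalization, with the transcript length trend removed and without inhibitor replicate 2, and that of HLA-C was above 0 without inhibitor replicate 2.

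**Figure D2:**
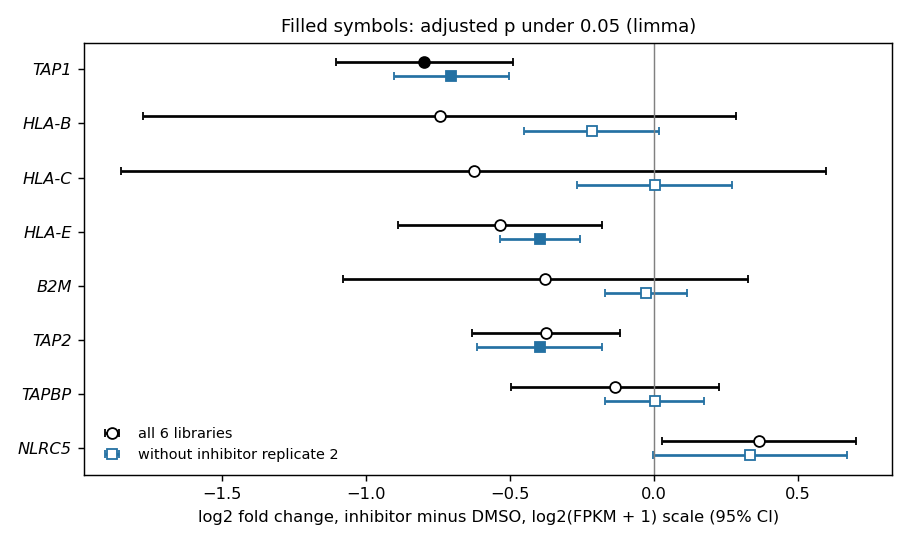
Log2 fold change of the 8 tested members (x axis, inhibitor minus DMSO, with 95% confidence intervals from limma), with all 6 libraries (circles) and without inhibitor replicate 2 (squares). TAP1 is filled in both fits, TAP2 and HLA-E only without that library, and HLA-C and TAPBP then lie at 0.00.

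Inhibitor replicate 2 was low in members with short transcripts. Set against the mean of its partners on the log2(FPKM + 1) scale, it was lower by −1.89 for HLA-C, −1.58 for HLA-B and −1.05 for B2M, whose principal transcripts are 1536, 1547 and 1705 bases long. The same difference was −0.41 for TAPBP, −0.42 for HLA-E, −0.28 for TAP1, 0.06 for TAP2 and 0.09 for NLRC5, whose transcript is the longest at 6822 bases. Over all protein-coding genes tested the median of this difference was −0.85 for transcripts under 1000 bases (521 genes), −0.42 from 1000 to 2000 bases (2080 genes) and 0.24 from 4000 to 8000 bases (3091 genes). TAPBP lay at the median of its length class, whereas HLA-C and HLA-B lay far below it. Of 10555 protein-coding genes of all lengths, only 0.436% had a lower value than HLA-C and 1.26% than HLA-B. The shares within their length class were not computed. With a smooth trend on transcript length removed, TAP1 stood at −0.72, HLA-E at −0.43 (both called), HLA-B at −0.57 and HLA-C at −0.45. The part of transcript length in the low class I chains of this library was otherwise not tested.

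**Figure D3:**
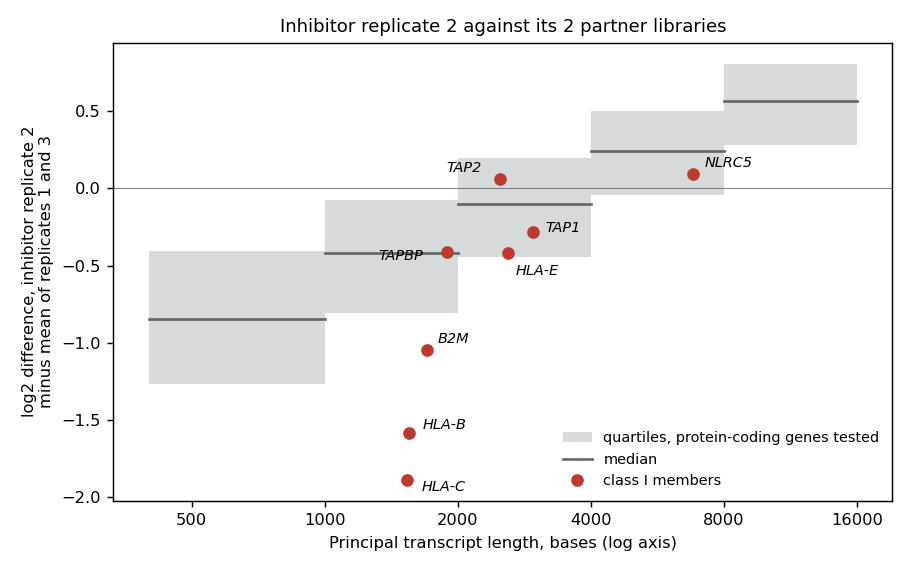
Difference of inhibitor replicate 2 from the mean of inhibitor replicates 1 and 3 (y axis, log2(FPKM + 1) scale) against principal transcript length (x axis, bases, log axis). Grey bars give the quartiles and lines the median of protein-coding genes in each length class; HLA-B, HLA-C and B2M lie below the quartiles of their class.

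The rest of the pathway was read from lists of genes grouped by function. Over their union, 82 genes passed the filter, of which 19 were lower and 2 higher (median −0.17); without inhibitor replicate 2 the counts were 33 and 13 (median −0.16). Over all genes tested, 10.0% were lower and 7.18% higher, and 23.1% and 17.5% without that library, the shares against which each count below stands. The lists were chosen with earlier results of these data known, so a count above these shares may follow from that choice. Of 22 transcriptional regulators of class I, 5 fell and none rose. RELB, an NF-kB subunit, went from 14.8 ± 2.11 to 2.44 ± 0.425 FPKM (SD, n = 3 each; −2.19), NFKB2 from 59.8 ± 5.90 to 25.6 ± 4.97 (−1.21) and IRF1, the interferon-induced activator of TAP1, from 3.63 ± 0.235 to 1.11 ± 0.235 (−1.14). USF1 (−0.70) and NFKB1 (−0.76, named after its values were seen) complete the count. In the fit without inhibitor replicate 2 the values were −2.22 for RELB, −1.05 for NFKB2, −1.04 for IRF1, −0.71 for USF1 and −0.86 for NFKB1. None of the 3 RFX subunits, with which NLRC5 is known to act, was called with all libraries (all named after their values were seen). Mean FPKM in DMSO and inhibitor was 18.4 and 18.2 for RFX5 and 9.75 and 10.3 for RFXANK. RFXAP went from 1.12 ± 0.240 to 2.36 ± 0.679 FPKM with no overlap between groups (0.65, limma adjusted p = 0.0592). RFXAP (0.79, adjusted p = 0.0109) and RFXANK (0.27, adjusted p = 0.0221) were called higher without inhibitor replicate 2, a fit in which 9 of the regulators were lower and 2 higher.

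Of 8 tested interferon receptor and signalling genes, 3 fell: both chains of the gamma-interferon receptor, IFNGR1 (10.4 ± 1.33 to 5.91 ± 0.818 FPKM, −0.72) and IFNGR2 (9.12 ± 0.714 to 6.36 ± 0.481, −0.46), and the feedback inhibitor SOCS3 (−0.91). The counts were the same without inhibitor replicate 2, with −0.62 for IFNGR1, −0.43 for IFNGR2 and −0.65 for SOCS3. Interferon-stimulated genes went both ways: of 11 tested, ISG15, a ubiquitin-like modifier, fell from 52.2 ± 6.43 to 17.1 ± 4.84 FPKM (−1.59), IFIT1 rose from 1.45 ± 0.337 to 3.05 ± 0.537 FPKM (0.73), and the median was −0.17. Without inhibitor replicate 2, 2 of them were lower and 4 higher, with a median of −0.06, ISG15 at −1.34 and IFIT1 at 0.68.

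Among proteasome genes, which supply the peptides, members of the constitutive core fell. Of 9 tested, 5 fell: the catalytic subunits PSMB5 (82.7 ± 5.95 to 42.0 ± 12.8 FPKM, −1.01), PSMB6 (−0.60, named after its values were seen) and PSMB7 (204 ± 4.70 to 129 ± 2.97, −0.66), the assembly factor POMP (−0.99) and the nuclear activator PSME3 (−0.48). The immunoproteasome subunits, named after their values were seen, were not called: PSMB8 stood at 2.87 ± 0.170 and 3.28 ± 1.19 FPKM and PSMB10 at 1.56 ± 0.0528 and 2.33 ± 0.797 FPKM, and PSMB9 did not pass the filter. Without inhibitor replicate 2, the list had 5 lower and 3 higher, the latter being PSMB8 (0.35), PSMB10 (0.51) and the activator subunit PSME1 (0.25). In that fit PSMB5 stood at −0.73, PSMB6 at −0.46, PSMB7 at −0.66, POMP at −0.89 and PSME3 at −0.50.

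Of 15 loading chaperones and trimming enzymes, 3 fell, each a folding factor of the loading complex or the endoplasmic reticulum: CALR, or calreticulin (406 ± 27.3 to 249.9 ± 18.4 FPKM, −0.70), HSPA5 (387 ± 10.1 to 237 ± 30.2, −0.71) and the disulfide isomerase PDIA3, or ERp57 (73.3 ± 3.67 to 51.4 ± 6.17, −0.51). Without inhibitor replicate 2, 7 were lower and 0 higher, with CALR at −0.64, HSPA5 at −0.61 and PDIA3 at −0.43. Of 8 other class I-like chains tested, the NKG2D ligand ULBP2 fell from 12.5 ± 0.735 to 6.13 ± 1.29 FPKM (−0.93) and the iron regulator HFE rose from 2.002 ± 0.241 to 3.21 ± 0.208 (0.49); without inhibitor replicate 2, 3 were lower and 1 higher, with ULBP2 at −0.78 and HFE at 0.48. Of 8 genes linked to turnover of surface class I, only IRGQ, an autophagy receptor, fell (9.78 ± 0.740 to 5.24 ± 1.09 FPKM, −0.80), against 4 lower and 2 higher without inhibitor replicate 2, where IRGQ stood at −0.65. Of the 19 called genes that the naming rule took from these lists, IRF1 and RELB kept their call without each library in turn. The other 17 lost it without at least 1 library, with a highest adjusted p of 0.0514 to 0.172 (limma). The number of genes of the union called lower was 2, 4 and 4 when DMSO replicate 1, 2 or 3 was dropped, and 7 and 12 when inhibitor replicate 1 or 3 was.

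**Figure D4:**
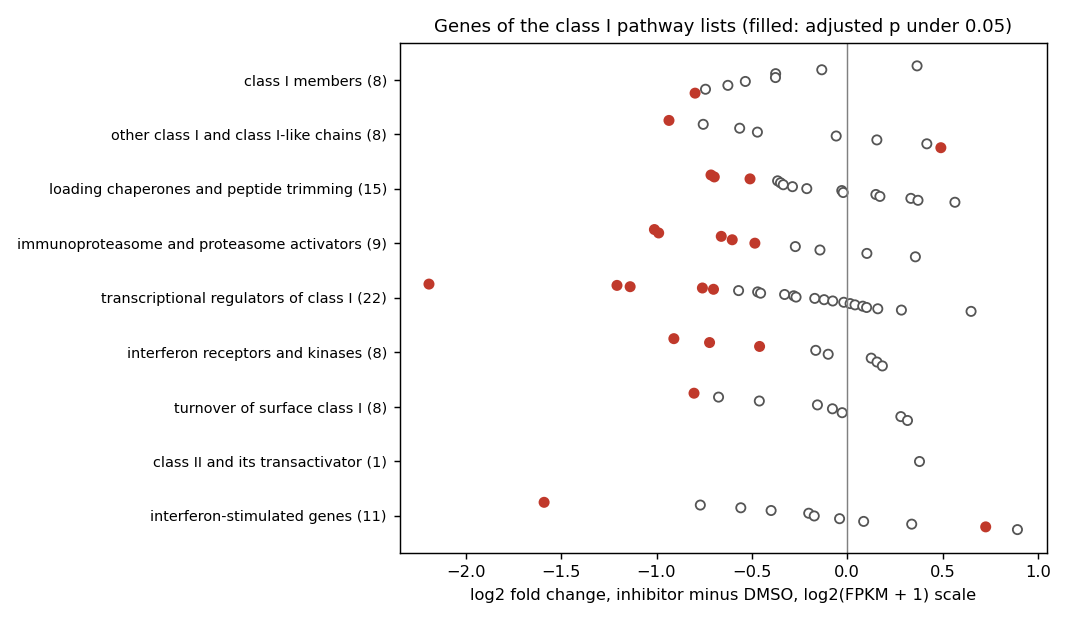
Log2 fold change (x axis, inhibitor minus DMSO) of each tested gene of the class I members and of the pathway lists (y axis, number tested in brackets), all 6 libraries. Filled points were called; RELB lies farthest left at −2.19, and called points lie left of 0 except HFE and IFIT1.

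The genes whose 6 centred log2 values lay closest to those of B2M (Euclidean distance over 6 libraries) were RNF5 (0.0821), ATP5MC2 (0.0979) and AC005253.1 (0.101), none of them called. For NLRC5 they were RNF123 (0.101), ZNF672 (0.109) and TMEM38A (0.111), with log2 fold changes of 0.43, 0.44 and 0.43 and limma adjusted p = 0.0716, 0.0643 and 0.0716. The log2 fold changes without inhibitor replicate 2 were −0.01, −0.01 and −0.03 for the first 3, none called, and 0.39, 0.43 and 0.42 for the others, each called (limma adjusted p = 0.0484, 0.0377 and 0.0429). All were picked for likeness to B2M or NLRC5 over these same libraries. Similar fold changes thus follow from the choice and are no support for a change of either member.

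**Figure D5:**
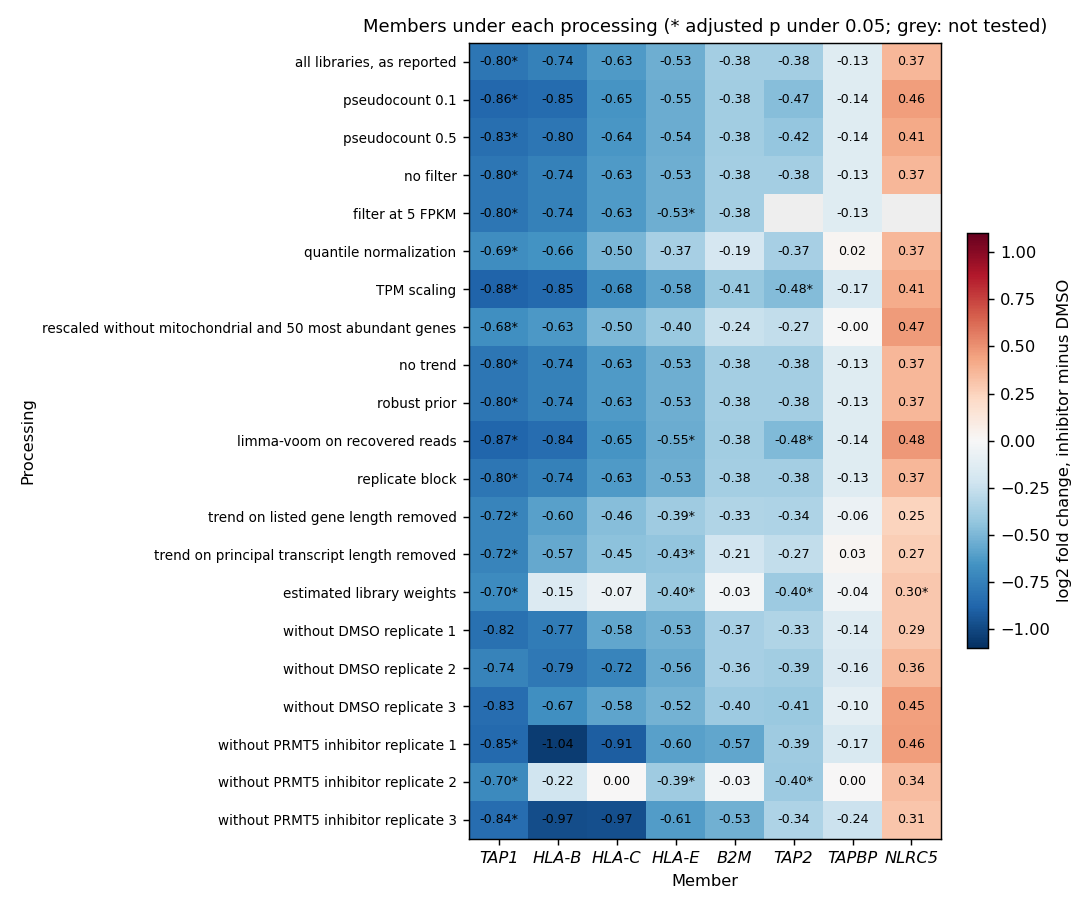
Log2 fold change (colour and number, inhibitor minus DMSO) of the 8 tested members (columns) under each processing (rows); an asterisk marks an adjusted p under 0.05 and grey a member outside the filter. TAP1 is called in 17 of 20 alternatives, HLA-E in 6 of 20, TAP2 in 4 of 19 and NLRC5 in 1 of 19.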

How the data were processed

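Total RNA of 6 libraries was prepared with a strand-marking kit, per the labels' protocols. Reads were placed on hg38, per the submitters' processing notes; for the aligner, counter, strand setting and annotation the sources used here give nothing. The authors deposited FPKM values for 58735 genes with a listed length per gene, which is in bases. Multiplied by length and divided by 1 factor per library, 100% of values came out as whole reads (within 0.01), which gave the depths. Replicates differed by more than sampling noise (chi-square per degree of freedom 2.48 to 98.7), so each counted once. Genes that reached 1 FPKM in 3 or more libraries were fitted as log2(FPKM + 1) with limma 3.58.1 in R 4.3.3 (mean-variance trend, two-sided, Benjamini-Hochberg, threshold 0.05). The fit was first tried on simulated data. The simulated libraries shared 1 level of spread and none stood apart, so that trial does not cover a library such as inhibitor replicate 2. Transcript lengths and words came from GENCODE 29. Python 3.11.15 with numpy 2.4.6, pandas 2.3.3 and matplotlib 3.10.9 did the rest. Members and lists were chosen with earlier results of these data known. Named are all members, PRMT5, from each list up to 4 called genes with the smallest adjusted p (where none was called, the 2 highest), and the 3 nearest patterns to B2M and NLRC5. Alternatives were other pseudocounts, filters, scalings and models, a replicate block, a length trend and leaving out each library; estimated library weights and the transcript length trend were added after seeing the data.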

Additional observations from a re-analysis of the deposited data

How the results depend on the processing

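TAP1 kept its direction under all 20 alternatives and its call in 17; the 3 exceptions are the fits without a DMSO library. Members called lower numbered 2 with the filter at 5 FPKM, with TPM scaling and with either length trend removed, and 3 with limma-voom and with estimated library weights; the weights, which set inhibitor replicate 2 at 0.0624 and inhibitor replicate 1 at 4.79, also called 1 member higher, NLRC5. TAPBP turned positive with quantile normalization (0.0180), with the transcript length trend removed (0.0257) and without inhibitor replicate 2, and HLA-C without that library; leaving out each library gave −0.238 to 0.00454 for TAPBP and −0.970 to 0.00311 for HLA-C. Genes called in all numbered 1533 with no filter, 1505 with the filter at 5 FPKM, 1478 with the replicate block and 7697 with library weights. Pathway genes called higher numbered 0 with no filter, with the filter at 5 FPKM and with the replicate block, 5 when rescaled without mitochondrial and abundant genes and with the transcript length trend removed, 6 with the listed length trend removed and 15 with library weights, which called 37 lower. Leaving out each library gave 478 to 5513 genes called, 0 to 3 members lower, and 2 to 33 pathway genes lower and 0 to 13 higher. Rescaling without mitochondrial and abundant genes moved the median of all genes tested from −0.05 to 0.05. The cause of these shifts was not tested. The labels link same-numbered libraries by number alone. The correlation of deviations was −0.018, 0.16 and 0.25 for numbers 1 to 3, and −0.209 to 0.0920 for unlike numbers. DMSO replicates 2 and 3 correlated best with the inhibitor library of their own number, and DMSO replicate 1 did not. These values do not settle whether libraries were paired. The replicate block changed no call of a member. HLA-F, with at most 2 counted reads in a library, was too low to test.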

Other observations

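Class II genes were near absent in these libraries. Of 14 class II genes and partners, HLA-DRB1, HLA-DRB5, HLA-DQA1 and HLA-DQB1 had no reads, and only HLA-DMA, a peptide-exchange chain, passed the filter. HLA-DMA had 1.08, 1.62 and 1.73 FPKM with DMSO; the inhibitor libraries had 2.72, 1.18 and 3.03; its libraries overlapped (limma adjusted p = 0.347), and without inhibitor replicate 2 it was called higher (log2 fold change 0.65, adjusted p = 0.0173). The class II transactivator CIITA, a relative of NLRC5, did not pass the filter and stood at 0.176 ± 0.0588 FPKM in DMSO and 0.470 ± 0.0875 with the inhibitor (SD, n = 3 each).

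From HLA-F to TAPBP on chromosome 6 (29722775 to 33314387), the interval that holds 7 of the 9 members, 90 other genes passed the filter. Of these, 9 were lower and 3 higher (13.3% called, against 17.2% of all genes tested), with a median log2 fold change of −0.18. The counts without inhibitor replicate 2 were 24 lower and 15 higher (43.3% called, against 40.6%), with a median of −0.02.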
